A study of Mus musculus with 2 samples.

Results

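The genes described here are 9 members of the mouse Notch pathway, the receptors Notch1, Notch2 and Notch3, the ligands Jag1, Dll1 and Dll4, and the targets Hes1, Hey1 and Nrarp. They were looked up by gene name in a table of cluster comparisons from 2 tumors, and 8 of the 9 were found among the 18319 genes that the table names. Hey1 was not named in any of the 11 clusters. The tumors were a tubular adenocarcinoma taken 13 weeks, and a cystic adenocarcinoma taken 10 weeks, after mouse dysplastic stem cells called DP-DSC were injected into female mice. The host strain is given as NuJ, a nude strain that has no functional thymus and few T cells but keeps its other blood cells, vessels and stroma. Both libraries share the injected cell type, the sex and the strain. There was 1 library per tumor type, and the table separates cell clusters but not tumor types, so the tumors could not be compared and no value has an error across animals.

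In Notch signaling a ligand on one cell binds a receptor on its neighbor, which is then cut by an ADAM protease and by gamma-secretase. The freed intracellular domain enters the nucleus, joins the DNA-binding protein RBPJ and Mastermind coactivators, and turns on targets such as the repressors Hes1 and Hey1 and the feedback inhibitor Nrarp. In the mouse stomach the pathway is known for keeping stem and progenitor cells dividing and for holding back their differentiation.

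Throughout, a gene counts as listed in any cluster whose part of the table names it, which takes a linear fold above 1.5, and as raised where that fold is 2 or more with a deposited p of 0.05 or less. A gene that is not listed may be lower, unchanged, weakly higher or not measured. The cells each cluster was set against are not named. The folds of different clusters may share cells, and they are given side by side. Cluster sizes and counts per cell are likewise not stated, and the depth is unknown.

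The labels call the sample cells tumor cells, but the clusters also carry genes of host cell types. In the authors' deposited table all 10 macrophage markers were raised in cluster 4, which is macrophage-like. All 10 fibroblast markers were raised in cluster 11, which is fibroblast-like, and 7 of 8 neutrophil markers in cluster 10. Cluster 10 also had 5 of 8 T and NK markers raised, with Cd4 at 110.7 and Cd3e at 25.9 by the authors' deposited table, and 4 of 10 macrophage markers. Clusters 6 and 9 are surface-mucous-like, with 7 of 8 markers of the gastric surface mucous cell and 5 of 9 general epithelial markers raised in each. Cluster 3 had 3 of these 8 and 4 of these 9 raised. The surface mucous marker Muc5ac was not listed in any of these clusters. Of 6 tuft cell markers, 3 were raised in cluster 6 (Avil, Trpm5 and Pou2f3), 1 in cluster 3 (Dclk1) and 0 in cluster 9. Cluster 8 had 10 of 10 macrophage and 5 of 8 dendritic markers raised, cluster 2 had 5 of 6 erythroid and cluster 5 had 3 of 8 mast cell markers raised. Cluster 5 also listed 5 of 9 general epithelial markers, 1 of them raised. These last clusters, and clusters 1 and 7, are called by number.

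Hes and Hey proteins bind E-box and N-box letters. The upstream sequences of the target Nrarp and the ligand Dll4 are shown as examples of genes raised in cluster 9. Each is the 250 bases before the RefSeq gene start on build GRCm38.p6, plus strand, Nrarp at chr2:25180508-25180757 and Dll4 at chr2:119325534-119325783. Capitals mark the E-box CACGTG and the N-box CACNAG on either strand.
Nrarp: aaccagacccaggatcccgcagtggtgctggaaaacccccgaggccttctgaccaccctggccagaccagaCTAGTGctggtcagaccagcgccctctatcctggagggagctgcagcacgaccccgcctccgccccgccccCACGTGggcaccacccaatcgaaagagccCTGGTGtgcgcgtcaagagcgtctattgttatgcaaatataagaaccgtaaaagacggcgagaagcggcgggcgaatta
Dll4: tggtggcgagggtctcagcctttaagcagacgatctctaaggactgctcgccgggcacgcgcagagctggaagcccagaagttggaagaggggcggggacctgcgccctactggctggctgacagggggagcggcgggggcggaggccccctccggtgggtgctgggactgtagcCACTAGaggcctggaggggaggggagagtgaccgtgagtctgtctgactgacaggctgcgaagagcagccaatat

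Of the 9 genes, 7 had an entry in the RefSeq promoter table, with 8 promoters between them. The targets Hes1 and Hey1 had no entry, so Nrarp was the only target searched and the rest were receptors and ligands. The RBPJ core letters TGGGAA were searched on both strands of the same 250 bases. They occurred in 0 of the 8 promoters, against 21.6% of 32851 promoters of the table. The E-box occurred in 1 of the 8, that of Nrarp, against 6.02% of all promoters, and lay 108 to 103 bases before the start. The N-box occurred in 5 of the 8, against 36.7% of all promoters. In Nrarp it lay at 179 to 174 and at 79 to 74 bases before the start, both on the opposite strand, and in Dll4 at 75 to 70 on the same strand. Notch1 and Dll1, also raised in cluster 9, are not shown. Notch1 had an N-box at 108 to 103 on the same strand, and neither promoter of Dll1 had an E-box or an N-box. None of these matches overlapped another. A match is a description of the letters in this window, and no match says nothing about binding elsewhere.

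The most Notch members were raised in the surface-mucous-like cluster 9, a receptor, 2 ligands and 2 targets. Of the 9 genes, 5 were listed and all 5 raised there (Notch1, Dll1, Dll4, Hes1 and Nrarp), against 38.9% of all genes listed and 26.6% raised. Taking genes that are not listed as lower, the middle fold of the 9 was that of Hes1, 2.19 by the authors' deposited table, while the middle one of all genes was below 1.5 and not listed. In cluster 6, 4 of the 9 were listed and 2 raised (Hes1 and Nrarp), against 36.4% of all genes listed and 20.3% raised, so the members' count is near the background there. All 4 listed members of cluster 6 had a fold of at least 2, and Dll1 and Dll4 missed only the limit on p. The difference between clusters 9 and 6 was not tested.

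Single members were raised in 4 further clusters. In cluster 3 it was Hes1, with 3 of 9 listed and 1 raised, against 29.9% of all genes listed and 4% raised. In cluster 5 it was Notch3, with 3 of 9 listed and 1 raised, against 20.6% and 4.32% of all genes. In cluster 4 it was Notch2, with 1 of 9 listed and raised, against 31.5% and 18.6% of all genes. In cluster 2 it was Jag1, with 1 of 9 listed and raised, against 9.07% and 2.89% of all genes. A count of 1 in 9 carries little weight against any of these shares.

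No member was raised in the remaining 5 clusters. Cluster 8 had 3 of 9 listed and 0 raised, against 26.4% of all genes listed and 6.36% raised. Clusters 10 and 11 had 1 of 9 listed each and 0 raised, against 18.9% and 25.7% of all genes listed and 4.9% and 17% raised. Clusters 1 and 7 had 0 of 9 listed and raised, against 6.34% and 12.1% of all genes listed and 1.82% and 3.42% raised. Over the whole table, 22 of the 99 pairs of a member and a cluster were listed and 11 raised, which is 22.2% and 11.1%, against 23.3% and 10.0% of the pairs of all genes. Each of the 8 named members was raised in at least 1 cluster, 88.9% of the 9, against 78% of all genes. Both shares over the whole table lay near those of all genes, while 5 of the 11 raised pairs (45.5%) fell in cluster 9, the cluster with the most raised genes, against 24.1% of the raised pairs of all genes.

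**Figure D1:**
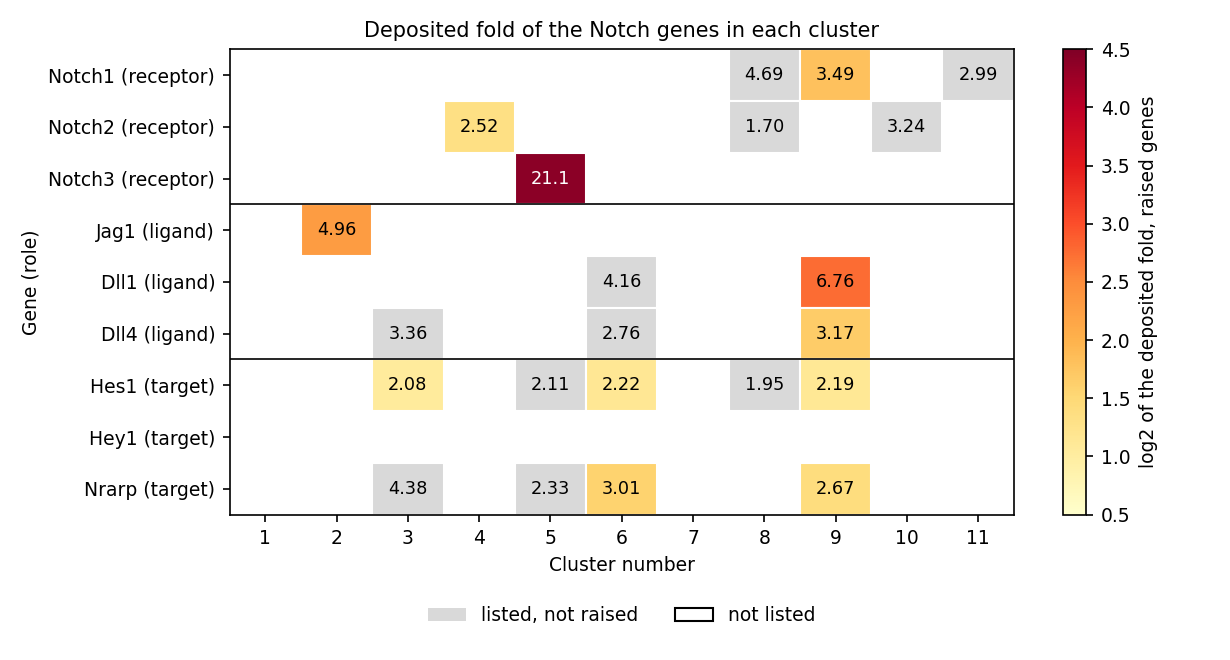
Deposited folds of the 9 Notch genes (rows, with their role) in the 11 clusters (columns). Colored cells are raised genes, shaded by the log2 of the fold, gray cells are listed genes that were not raised, and white cells are not listed; cluster 9 holds 5 raised genes and the row of Hey1 is empty.

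**Figure D2:**
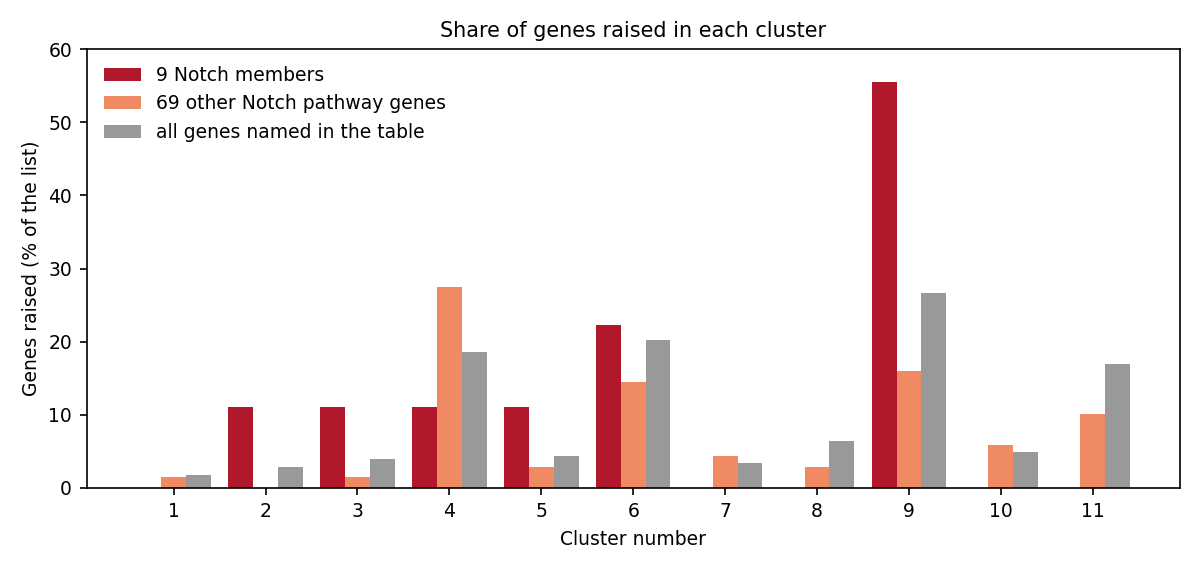
Percentage of genes raised in each cluster (y axis from 0), for the 9 Notch members, for 69 other Notch pathway genes and for all 18319 genes named in the table. In cluster 9 the members stand at 55.6% and all genes at 26.6%, while the other pathway genes stand at 15.9%. Of the 69, 15 are not named in the table and count as not raised.

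The 3 receptors were each raised in a different cluster. Notch1 lies on chromosome 2 from 26457903 to 26516663 (minus strand, build GRCm38, as are the positions below). In cluster 9 its fold was 3.49 by the authors' deposited table, larger than 58.7% of the folds of the 4871 raised genes of that cluster. It was also listed, but not raised, at 4.69 in cluster 8 and at 2.99 in cluster 11 by the authors' deposited table. The largest of its 3 folds was thus not the one that met the limit on the deposited p.

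Notch2, a receptor that several myeloid lineages use, lies on chromosome 3 from 98013527 to 98150361 (plus strand). Its fold in the macrophage-like cluster 4 was 2.52 by the authors' deposited table, larger than 21.3% of the 3402 raised folds there. In cluster 10 it was listed at 3.24 and in cluster 8 at 1.70 by the authors' deposited table, and it was not raised in either. All 3 clusters that list Notch2 had at least 4 of the 10 macrophage markers raised, with 10 in cluster 4, 10 in cluster 8 and 4 in cluster 10.

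Notch3, known as the receptor of pericytes and vascular smooth muscle, lies on chromosome 17 from 32120820 to 32166852 (minus strand). It was listed in 1 cluster only, cluster 5, where its fold of 21.1 by the authors' deposited table was the largest of any member and ranked 144 among 3765 listed genes. It came at place 626 when those genes are ordered by the deposited p, and the call ended at a deposited p of at most 0.01. Of 8 pericyte and smooth muscle markers, 1 was listed in cluster 5, Cspg4 at 2.01 by the authors' deposited table, and 0 were raised. The other seven markers, Pdgfrb, Rgs5, Acta2, Myh11, Tagln, Des and Kcnj8, were not listed there. Mast cell markers were raised in the same cluster, Tpsb2 at 403.5, Cpa3 at 177.7 and Mcpt4 at 10.5 by the authors' deposited table. General epithelial markers were listed there too, with Cdh1 raised at 3.94 by the authors' deposited table and Cldn3, Elf3, Epcam and Krt19 not raised. The part of any of these cell types in the Notch3 fold was not tested.

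Among the ligands, both Delta-like genes were raised in cluster 9 and neither in another cluster. Dll1, which marks secretory precursors in the mouse intestine, lies on chromosome 17 from 15367354 to 15376872 (minus strand). Its fold in cluster 9 was 6.76 by the authors' deposited table, larger than 89.8% of the raised folds there and the largest of the 5 raised members. It was listed at 4.16 in cluster 6 by the authors' deposited table and missed the limit on p there. In cluster 9 Dll1 nevertheless came late by p, at place 5773 of 7131 listed genes.

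Dll4, a ligand known from sprouting endothelium and from the intestinal crypt, lies on chromosome 2 from 119325784 to 119335962 (plus strand). Its fold was 3.17 in cluster 9 by the authors' deposited table, larger than 51.7% of the raised folds there. It was listed but not raised at 3.36 in cluster 3 and at 2.76 in cluster 6 by the authors' deposited table, so its 3 folds lay within 1.22 times of each other. Every cluster that lists Dll1 or Dll4 had at least 4 of the 9 general epithelial markers raised. Of 10 endothelial markers, 2 were listed in cluster 9 and both were raised, Cldn5 at 5.06 and Cdh5 at 2.70 by the authors' deposited table. Pecam1, Kdr, Tek, Tie1, Vwf, Emcn, Egfl7 and Esam were not listed in cluster 9. The part of endothelial cells in the folds of Dll4 and Notch1 was not tested.

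Jag1, the Jagged ligand of the set, was listed in none of the clusters that list a Delta-like gene. It lies on chromosome 2 from 137081456 to 137116644 (minus strand). It was listed in cluster 2 alone, at a fold of 4.96 by the authors' deposited table, larger than 62.9% of the 529 raised folds there. The call ended at a deposited p of at most 0.01. The same cluster had 5 of 6 erythroid markers raised, at folds of 7.34 to 11.8 by the authors' deposited table, and the part of red cell RNA in the Jag1 fold was not tested.

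The targets Hes1 and Nrarp shared most of their clusters, and Hey1 was absent. Hes1, a transcriptional repressor and a classic Notch target in the gut, lies on chromosome 16 from 30064384 to 30067796 (plus strand). It was the member listed in most clusters, 5, and raised in most, 3. Its folds by the authors' deposited table were 2.08 in cluster 3, 2.22 in cluster 6 and 2.19 in cluster 9, where it was raised. In clusters 5 and 8 its folds were 2.11 and 1.95 by the authors' deposited table, and it was not raised.

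The folds of Hes1 spanned 1.14 times from the lowest to the highest. They were small beside other raised genes, larger than 13.1% of the raised folds of cluster 9, 11.6% of those of cluster 6 and 2.46% of those of cluster 3. Ordered by p, however, Hes1 came early, at place 514 of 7131 in cluster 9, 665 of 6664 in cluster 6 and 434 of 5474 in cluster 3. Dll1 showed the opposite order in cluster 9, with a large fold and a late place. Hes1 has no overlapping gene in the GENCODE M21 annotation.

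Nrarp, an ankyrin-repeat protein that is induced by Notch and dampens it, lies on chromosome 2 from 25180758 to 25183339 (plus strand). Its folds by the authors' deposited table were 3.01 in cluster 6 and 2.67 in cluster 9, where it was raised, and 4.38 in cluster 3 and 2.33 in cluster 5, where it was not. The call in cluster 6 ended at a deposited p of at most 0.01. All 4 clusters that list Nrarp also list Hes1, and cluster 8 lists Hes1 but not Nrarp.

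An antisense gene, Gm38287, covers 2559 of the 2582 bases of Nrarp on the opposite strand, from 25180781 to 25183339. It was looked at after its values were seen. In the authors' deposited table Gm38287 was listed in the same 4 clusters as Nrarp, raised at 3.21 in cluster 6 and 2.83 in cluster 9, and not raised at 4.71 in cluster 3 and 2.09 in cluster 5. Whether reads were counted by strand is not stated in the labels or the table, so the reads of Nrarp and Gm38287 cannot be told apart and the Nrarp folds are uncertain to that extent. Notch1, Notch3, Dll1 and Dll4 also overlap a gene on the opposite strand, but over part of their length. In cluster 9, where Notch1, Dll1 and Dll4 were raised, 0610009E02Rik, Gm13568, A930024N18Rik and Gm14207 were not listed. In cluster 5 Gm17276, the antisense partner of Notch3, was not listed. Where Notch1 was listed at 2.99 in cluster 11, 0610009E02Rik was raised at 14.9 and Gm13568 was listed at 2.22 by the authors' deposited table, and in cluster 8 neither was listed. Notch2 holds the predicted genes Gm42819 and Gm42820 on its own strand. Gm42819 was listed, but not raised, at 2.48 in cluster 4 and at 10.2 in cluster 8 by the authors' deposited table. Gm42820 was listed at 2.01 in cluster 8 and raised at 31.5 in cluster 10 by the authors' deposited table, so these cover all 3 clusters that list Notch2, and reads of overlapping genes may be split between them.

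Hey1, the second repressor of the set, lies on chromosome 3 from 8663359 to 8667256 (minus strand) and was not listed anywhere, nor were its relatives Hey2 and Heyl.

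**Figure D3:**
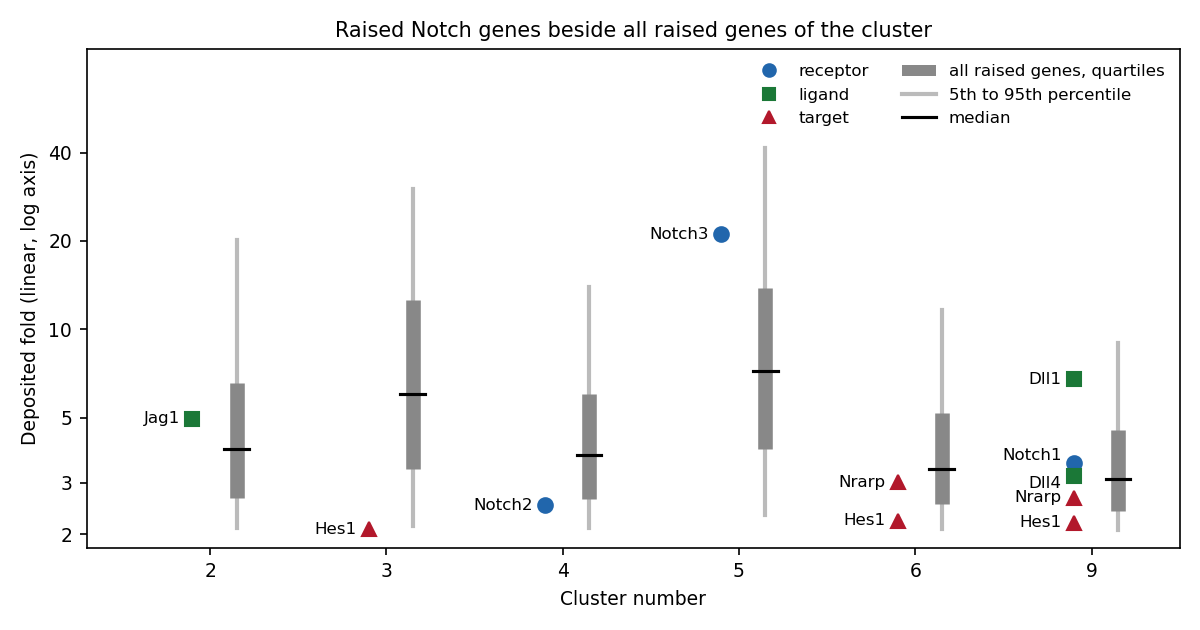
Deposited folds (log axis) of the raised Notch genes, as symbols by role, beside all raised genes of the same cluster, as a bar for the quartiles, a line for the 5th to 95th percentile and a tick for the median. Hes1 sits near the lower end in clusters 3, 6 and 9 at 2.08, 2.22 and 2.19, while Dll1 at 6.76 in cluster 9 and Notch3 at 21.1 in cluster 5 lie above the upper quartile.

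Genes with the pattern most like a member were sought among those listed in exactly the same clusters, by the root mean square difference of log2 folds over those clusters, without unnamed predicted genes and those of ribosomes or the mitochondrial genome. For Nrarp, 275 genes shared its 4 clusters and 246 were searched, and the nearest were Samd5 at a difference of 0.09 and the alkaline phosphatase Alpl at 0.09. The antisense Gm38287, one of those left out, would have ranked 3, at 0.11. For Dll4, 521 genes shared its 3 clusters and 435 were searched, and the nearest were the semaphorin Sema3e at 0.09 and the annexin Anxa4 at 0.11. For Hes1, only 11 genes shared its 5 clusters, all of them searched, and the mitochondrial enzyme Idh3a at 0.16 and the mitochondrial ribosomal protein Mrpl16 at 0.19 were nearest.

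The other two members with at least 3 clusters were Notch1 and Notch2. For Notch1, 40 genes shared its 3 clusters and 31 were searched, with Wdr43 at 0.15 and the zinc finger gene Zfp169 at 0.27 nearest. For Notch2, 444 genes shared its 3 clusters and 398 were searched, with the glycolytic enzyme hexokinase 2 (Hk2) at 0.11 and the helicase Ddx39 at 0.11 nearest. These are likenesses over 3 to 5 folds that may share cells, and they say nothing of shared control.

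The rest of the pathway was counted in the same way, and its difference from the 9 members was not tested. Of 69 other pathway genes, 54 were named in the table, and 39 were raised in at least 1 cluster, 56.5% of the 69 against 78% of all genes. Of their 759 pairs with a cluster 60 were raised, 7.91% against 10.0% of the pairs of all genes. Their calls were most frequent in the macrophage-like cluster 4, where 19 of the 69, or 27.5%, were raised, against 18.6% of all genes. In cluster 9, 11 of the 69, or 15.9%, were raised against 26.6% of all genes, and in cluster 6 it was 10, or 14.5%, against 20.3%. Counting only the 54 named genes, the shares were 35.2% in cluster 4, 20.4% in cluster 9 and 18.5% in cluster 6. Of these 54, 39 were raised in at least 1 cluster, a share nearer to the 78% of all genes than the 56.5% of the 69. All genes are those named in at least 1 cluster, whereas 15 of the 69 were named in none. Those 15 lower the shares of the 69 genes, and of their 759 pairs, by construction.

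Genes that cut the receptor gave 6 of the 19 raised in cluster 4, as many as genes of endocytosis and turnover. Of the 10 genes that cut the receptor, 6 (60%) were raised there, against 18.6% of all genes. Among genes of gamma-secretase, Psen2 was at 3.61, nicastrin (Ncstn), which receives the substrate, at 2.21 and Psenen, just inside the limit, at 2.0005 by the authors' deposited table. Aph1c, of the same complex, stood at 3.78 by the authors' deposited table, and its reads may be shared with its close paralog Aph1b. The protease Furin, which makes the first cut, stood at 3.30 in cluster 4 by the authors' deposited table. The sheddase Adam10 was listed at 1.98 and Adam17 at 1.65 in cluster 4 by the authors' deposited table, below the limit of 2. In cluster 10 Adam17 was raised at 7.81, Aph1c at 14.7 and Aph1b at 5.73 by the authors' deposited table.

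The DNA-binding partner Rbpj was raised in the 3 clusters with the most macrophage markers. By the authors' deposited table it stood at 5.04 in cluster 4, against 3.02 in cluster 8 and 4.13 in cluster 10. These are the same clusters that list Notch2. Among the coactivators, Maml2 was at 5.51 in cluster 9 and 3.43 in cluster 6, and Maml3 was at 2.49 in cluster 9, by the authors' deposited table. The acetyltransferase Kat2b was raised in clusters 4, 6 and 9, at 2.94, 3.04 and 2.21 by the authors' deposited table. Of 8 corepressor genes 2 (25%) were raised in at least 1 cluster, against 78% of all genes. They were Ctbp1 at 2.87 in cluster 1 and Ncor1 at 2.73 in cluster 7 by the authors' deposited table.

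The fourth receptor, Notch4, known from endothelium, was raised in cluster 4 alone, at 6.56 by the authors' deposited table, where Kdr and Tie1 were the only 2 of 10 endothelial markers listed and neither was raised. The Jagged ligand Jag2 was raised in cluster 6 at 4.68 and in cluster 9 at 2.46 by the authors' deposited table. In these clusters Hes1 and Nrarp were both raised and Jag1 was not listed. The largest fold of Jag2 was in cluster 3, where it was listed at 7.54 by the authors' deposited table and was not raised. The atypical ligand Dner was raised at 4.97 in cluster 4 and at 3.12 in cluster 9 by the authors' deposited table. The microfibril proteins Mfap5 and Mfap2, which can bind Notch or its ligands, were raised in the fibroblast-like cluster 11, at 283.6 and 22.0 by the authors' deposited table. Dll3, Dlk1 and Dlk2 were not listed.

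Fringe enzymes, which add sugars to the receptor and alter its choice of ligand, were raised in separate clusters. Lfng was raised at 3.96 in cluster 4, and Rfng at 11.2 in cluster 6, by the authors' deposited table. Mfng was listed at 10.4 in cluster 8 by the authors' deposited table and was not raised. Among genes of endocytosis and turnover, 13 of 18 (72.2%) were raised in at least 1 cluster, near the 78% of all genes, and 6 of the 18 (33.3%) in cluster 4, against 18.6% of all genes. The ligand ubiquitin ligase Mib1 was raised in cluster 5 at 2.68, Neurl1b in cluster 3 at 4.41, and the receptor antagonist Numb in cluster 7 at 2.43, by the authors' deposited table. Fbxw7, which marks the active Notch fragment for destruction, was raised at 2.21 in cluster 6 and at 3.47 in cluster 7 by the authors' deposited table.

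Of the other Hes and Hey factors, 1 of 8 (12.5%) was raised in at least 1 cluster, against 78% of all genes. The same 1 of 8 was named in the table, whereas all genes are named there by construction. The named factor was Hes6, which counteracts Hes1. Hes6 was raised at 3.79 in cluster 9, 2.94 in cluster 6 and 2.27 in cluster 4 by the authors' deposited table. Hes2, Hes3, Hes5, Hes7, Hey2, Heyl and Helt were not listed. The lineage factors Atoh1 and Neurog3, which Hes1 represses, were not listed in any cluster either.

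**Figure D4:**
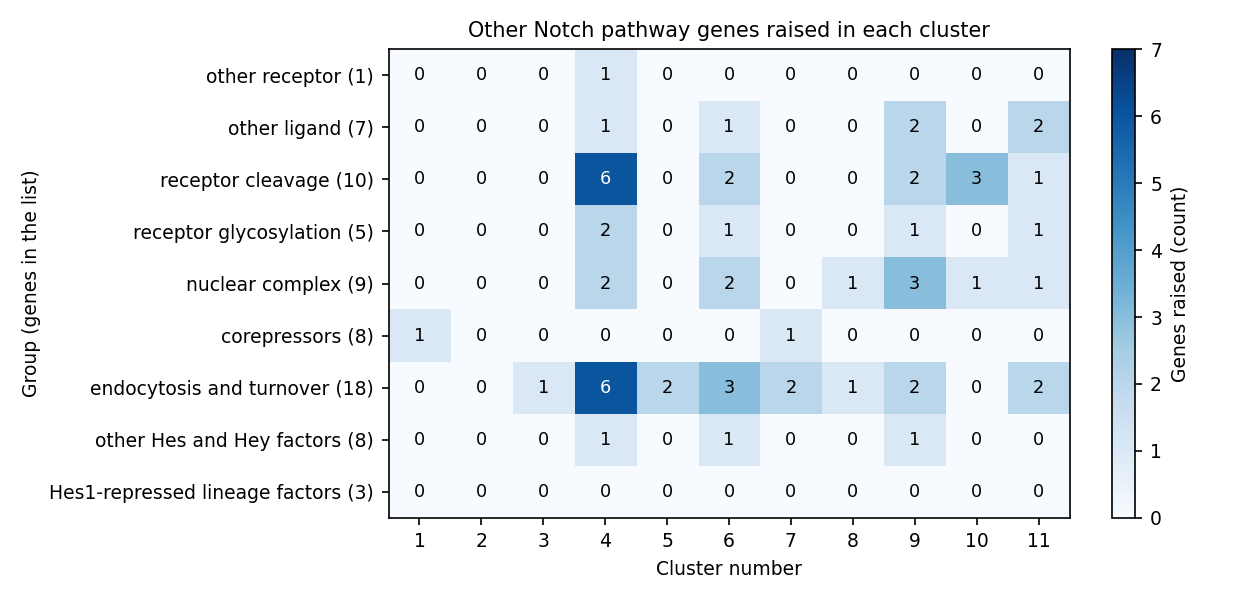
Number of the 69 other Notch pathway genes raised in each cluster (columns), by group (rows, with the number of genes in the group). The row of receptor cleavage genes has 6 of 10 raised in cluster 4 and 0 in clusters 1, 2, 3, 5, 7 and 8.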

How the data were processed

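Cells from 1 cystic and 1 tubular tumor were captured in inDrop droplets, and TruDrop libraries were made from them, per the labels' protocols. The submitters' processing notes name STAR 2.7.3a, DESeq2 3.5, Partek and the build mm10, with no step attached to any of them. How cells were filtered, doublets treated, clusters drawn and depth set is not stated there. The deposited table holds, for each of 11 clusters, the names of genes in order of their p-value, with a fold as a linear ratio, both named so per the file headers, and every fold is above 1.5. It holds 0 columns of per-sample values. The deposited p compares cells and not animals, so it was used only to call genes. No test was run.

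Genes were matched by symbol, and 17925 of 18319 (97.8%) had a GENCODE M21 gene (GRCm38). Promoters are RefSeq's, GRCm38.p6. Counting and figures used Python 3.11.15, pandas 2.3.3 and matplotlib 3.10.9, and the counting was tested on simulated data. The members, the 69 further pathway genes and the marker lists were chosen with earlier results of these data known. Named were the 9 members, pathway genes raised in at least 1 cluster, and for each member listed in 3 or more clusters the 2 nearest genes; pathway genes that were not raised are named only where the text says so. Other limits on fold and p were tried as alternatives. Some pathway genes that were counted are not reported here by name.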

Additional observations from a re-analysis of the deposited data

How the results depend on the processing

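The 11 raised pairs of a member and a cluster became 6 at a fold of at least 3, 7 at a deposited p of at most 0.001 and 20 with no limit on p, when all genes had 6.60%, 6.50% and 17.7% of their pairs raised. The number of clusters with a raised member, 6, became 3 at a p of at most 0.001. The 60 raised pairs of other pathway genes became 35, 38 and 110 under the same 3 settings. A fold above 1.5, a p of at most 0.01 and the smallest fold of a repeated gene kept each of these counts, and the number of raised members, within 1.5 times; no gene was repeated in a cluster. Cluster 9 kept its 5 raised members under every limit on p tried, and at a fold of at least 3 kept Notch1, Dll1 and Dll4, against 14.1% of all genes. With no limit on p, cluster 9 had these 5 against 27.1% of all genes. Cluster 6 then had 4 (Dll1, Dll4, Hes1 and Nrarp) against 25.9%. Clusters 3 and 5 then had 3 each, against 22% and 16.3%. Cluster 9 thus kept a lead over cluster 6, but the size of the lead depended on the limit on p. Hes1 in cluster 3 was no longer raised at a p of at most 0.001. The looser and stricter limits change how many genes are called by construction. No paired analysis was possible because there was 1 library per tumor type and the table has no per-sample values. Depth and the number of cells in each cluster are unknown, so no interval could be given.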
